A study of Mus musculus with 12 samples.

Results

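Oxidative phosphorylation is carried out by 5 protein complexes of the inner mitochondrial membrane, and the transcripts of their nuclear-encoded subunits were followed here in regulatory T cells (Tregs) from pancreatic islets and spleen. The genes were taken by symbol: those beginning with Nduf followed by a, b, c, s or v, the Sdh genes a to d, those beginning with Uqcr, with Cox followed by a number of 4 to 8, or with Atp5. This gave 92 of the 24417 symbols in the tables, and 82 of them reached a mean normalized count of 10 in at least 1 of the 4 comparisons, the minimum for a test. By complex, 35 of the 82 were subunits of complex I, 4 of complex II, 8 of complex III, 11 of complex IV and 15 of complex V, and the other 9 were assembly factors that the symbol rule also takes. All 82 were tested in 3 comparisons, and 81 in islets between the T cell receptors (TCRs), where the assembly factor Ndufaf6 had a mean normalized count of 9.84.

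The cells came from NOD mice, a strain that develops autoimmune diabetes, at 6.8 weeks of age. The animals were retrogenic, so their blood cells grew from marrow into which TCR genes had been introduced, and per the design text each animal carried a pair of insulin-specific receptors. Tregs with the high-affinity receptor 4-8 and Tregs with the low-affinity receptor 12-4.4m1 were sorted from islets and from spleen, which made 4 groups of 3 libraries: islets 4-8, islets 12-4.4m1, spleen 4-8 and spleen 12-4.4m1. No drug or further allele was named for any group, the labels do not say how many mice gave a library, and p-values therefore measure only the spread between these libraries.

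The respiratory chain passes electrons from NADH through complex I, and from succinate through complex II, by way of ubiquinone to complex III and by way of cytochrome c to complex IV, where oxygen is reduced. The protons moved by complexes I, III and IV drive complex V, the ATP synthase. All complexes except complex II also hold subunits encoded in mitochondrial DNA, which are not analysed here. Tregs are known for leaning on mitochondrial respiration more than conventional effector T cells do, which rely more on glycolysis once activated.

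Each comparison had its own table of 6 libraries, normalized separately, with rlog values, a log2 scale on which low genes are drawn towards their mean. Differences are 4-8 minus 12-4.4m1, or islets minus spleen, on this log2 scale, given as the value ± SE from limma, and genes passed at a Benjamini-Hochberg adjusted p of 0.05 over all genes tested. The depth of each library is unknown from these tables, and mean normalized counts summed to between 898995 and 1316454 per table. The TCR comparisons called 30 of 8212 genes in islets and 39 of 9108 in spleen, against 717 of 8981 and 575 of 8438 between tissues for 4-8 and 12-4.4m1. All 7 markers of Tregs and CD4 T cells were detected in every table. Neither of the 2 CD8 T cell markers reached the minimum count in any table, Cd8a being at 0 in the islet TCR and 12-4.4m1 tissue tables and Cd8b1 above 0 in all 4. On the linear scale of the rlog values, the summed level of 6 myeloid markers was 41.2 to 49.7 in islets 4-8, against 37.4 to 52.0 in spleen 4-8, and 15.4 to 16.3 in islets 12-4.4m1, against 15.6 to 16.7 in spleen 12-4.4m1. That of 4 endothelial and stromal markers was 20.2 to 26.6 in islets 4-8, against 29.6 to 39.5 in spleen 4-8, and 17.2 to 28.4 in islets 12-4.4m1, against 27.7 to 29.2 in spleen 12-4.4m1. Col3a1 was at 0 in both tissue tables, and Cdh5 was also at 0 in the 4-8 one. The summed level of 6 islet endocrine markers was 6.09 to 6.46 in islets 4-8, against 6.48 to 6.80 in spleen 4-8, and 12.2 to 13.5 in islets 12-4.4m1, against 12.5 to 24.0 in spleen 12-4.4m1. Iapp was at 0 in the 12-4.4m1 tissue table. Few of these myeloid, endothelial, stromal and endocrine markers reached the minimum count. For 4-8 they were 2 myeloid, 1 endothelial and stromal and 0 endocrine markers. For 12-4.4m1 they were 0, 1 and 1. Since rlog draws low genes towards their mean, similar sums do not show that the tissues hold similar amounts. Immediate early and heat shock genes (Fos, Jun, Hspa1a and others, 7 listed) were higher in islets with both receptors, 6 of 6 tested being called for 4-8 and 7 of 7 for 12-4.4m1, and their summed level was 2435 to 2746 in islets 4-8, against 457 to 512 in spleen 4-8, and 2744 to 3335 in islets 12-4.4m1, against 355 to 438 in spleen 12-4.4m1. Acinar genes were also higher in islets, 4 of 6 being called for 4-8 and 5 of 6 for 12-4.4m1, with a summed level of 86.7 to 170 in islets 4-8, against 59.3 to 66.3 in spleen 4-8, and 153 to 193 in islets 12-4.4m1, against 71.0 to 78.5 in spleen 12-4.4m1, and with Amy2a5 at 0 in every table. In the spleen TCR comparison 0 of 10 acinar markers reached the minimum count. Their summed level there was 12.7 to 13.4 in spleen 4-8 and 12.3 to 13.8 in spleen 12-4.4m1. Such sums thus depend on which libraries were normalized together. The part of these lists in the results that follow was not tested. In bulk samples, fewer cells of a type and less RNA per cell cannot be told apart.

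The subunits were among the well expressed genes, and the level per transcript length differed strongly between complexes. In the authors' FPKM, which give 1 value per group with no replicate spread, the median subunit of complex IV had 1471 in islets 4-8 and 1363 in islets 12-4.4m1. Complex III subunits had medians of 904 and 828 in the same 2 groups, complex V subunits 606 and 476, and complex I subunits 311 and 303. Complex II, the only complex that also works in the citric acid cycle, was lowest at 47.2 in islets 4-8 and 51.2 in islets 12-4.4m1, and assembly factors had 13.5 and 10.9. The median over all genes tested was 17.2 in both groups. In spleen the same order held, with medians from 1213 in 4-8 and 1221 in 12-4.4m1 for complex IV to 64.1 and 56.1 for complex II. Within complexes the range was wide: in islets 4-8, Ndufs1, the largest iron-sulfur subunit of complex I, had 20.1 FPKM, and the accessory subunit Ndufa3 had 2017.

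**Figure D1:**
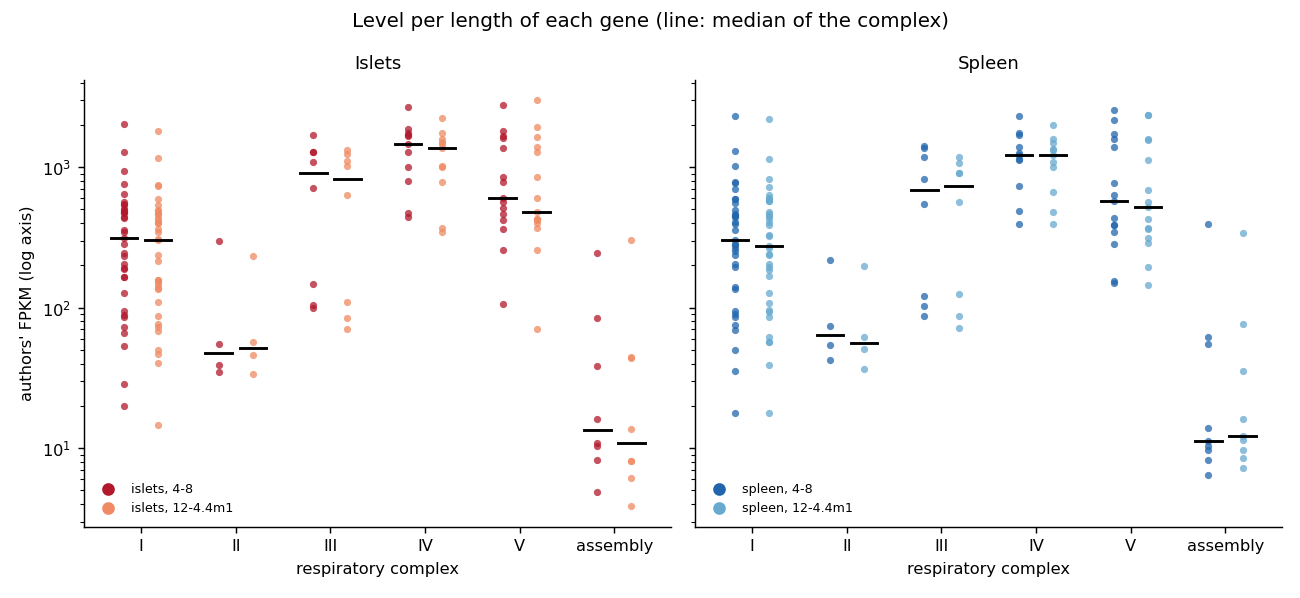
Authors' FPKM on a log axis for each tested gene, by complex, in islets on the left and spleen on the right, with 4-8 left of 12-4.4m1 and a line at the median of the complex. By median, complex IV stands highest and complex II lowest of the 5 complexes in all 4 groups, and assembly factors lie below them, although single assembly factors such as Cox7a2l lie among the subunits.

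Where a subunit exists in several isoforms, the tables showed the form known from most tissues and little of the forms known from heart, muscle, lung or testis. In the authors' FPKM of the spleen table, Cox4i1 had 1259 in 4-8 and 1221 in 12-4.4m1, while Cox4i2, the lung isoform, was listed at 0 in both. Cox6a1 had 1699 in spleen 4-8 and 1491 in spleen 12-4.4m1, and its muscle form Cox6a2 was listed at 0. Cox7a2 had 729 and 660.5 in spleen 4-8 and spleen 12-4.4m1, against 6.17 and 10.1 for the muscle form Cox7a1. Cox8a had 2302 in spleen 4-8 and 1980 in spleen 12-4.4m1, and Cox8b and Cox8c were listed at 0. The c subunit of the ATP synthase ring is made from 3 genes, and all 3 were present in spleen 4-8, with Atp5g2 at 767, Atp5g3 at 576 and Atp5g1 at 436. Mean normalized counts in the spleen TCR comparison had another order, with 371 for Atp5g3, 158 for Atp5g1 and 64.5 for Atp5g2. Which of the 3 leads is therefore uncertain. Ndufa4l2, a paralogue of Ndufa4 known to be induced by hypoxia, had 0.254 FPKM in spleen 4-8 and was listed at 0 in spleen 12-4.4m1.

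Of the 92 genes, 10 stayed below the minimum in every table: Cox4i2, Cox6a2, Cox6b2, Cox7a1, Cox7b2, Cox8b, Cox8c, Ndufa4l2, Atp5s and Ndufs5. Of these, 6 had a mean normalized count of 0 in all 4 tables, and Ndufs5, an accessory subunit of complex I, was among them although the authors' FPKM for it were 97.0 in spleen 4-8 and 94.1 in spleen 12-4.4m1. Atp5l, subunit g of the ATP synthase, had a mean normalized count of 84.6 in the spleen table beside 1391 FPKM in 4-8 and 1127 in 12-4.4m1. In the annotated transcripts, 84.8% of the 50-base windows of Atp5l also occur in other genes, as do 31.1% of those of Ndufs5 and 37.0% of those of Ndufb4. Count per kilobase of the longest transcript over FPKM was 14.6% of the member median for Atp5l and 14.9% for Ndufb4. It was also low for Atp5g1 (9.17%, with 11.6% of windows shared) and Ndufb2 (14.1%, with 5.4% shared). Their longest transcripts have 4715 and 4371 bases, against 544 for Atp5l. Dividing by so long a transcript lowers the ratio by itself, so for these genes a low ratio need not mean a gap between count and FPKM. Atp5h (77.6%, with 47.9% shared) and Atp5f1 (158%, with 38.7% shared) showed no such gap. Ndufa11 had the highest ratio, 467%, with 6.1% shared. Where the gap is large, count-based and FPKM values are uncertain, and its cause was not tested.

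In islets, no gene of oxidative phosphorylation passed the test between Tregs with 4-8 and Tregs with 12-4.4m1. Limma called 0 of 81, against 0.365% of all genes tested, and none of the 81 reached an unadjusted p under 0.05, against 6.78% of all genes. The authors' deposited DESeq2 and Cuffdiff tables also called 0 of them, against 0.353% and 0.881% of the genes they tested. In 0 of the 81 did the 3 libraries of one receptor all lie above those of the other, against 11.9% of all genes. The median difference was 0.07, beside -0.00 over all genes, and 57 of 81 differences were above 0, against 49.3% of all genes. The median was 0.18 without islet 4-8 replicate 2 and 0.17 without islet 12-4.4m1 replicate 3, against 0.02 without the unnumbered 4-8 library and 0.04 without islet 12-4.4m1 replicate 2. It was 0.19 in the authors' Cuffdiff table, 0.01 in the libraries with the letter R in their titles alone and -0.00 with the form of title in the fit. By complex, the median difference was 0.06 for complex I, 0.03 for complex II, 0.19 for complex III, 0.09 for complex IV and 0.02 for complex V. The 95% interval of the difference lay within 1 log2 unit of 0 for all 81 genes, and within 0.5 for 41 of them. A change of 2-fold on the rlog scale in either direction thus lay outside every interval. Since that scale draws low genes towards their mean, a 2-fold change in transcript level is not excluded.

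The largest positive value belonged to Ndufs7, an iron-sulfur core subunit of complex I. Its rlog values were 6.55, 6.27 and 7.32 in islets 4-8, against 6.45, 5.95 and 6.49 in islets 12-4.4m1. The groups overlapped, and the difference of 0.42 ± 0.23 (SE) had an adjusted p of 0.777 in limma. Ndufa11, an accessory subunit of complex I, had a difference of 0.33 ± 0.19, and Atp5f1, subunit b of the ATP synthase stalk, one of 0.31 ± 0.20. The largest negative values were -0.26 ± 0.19 for Cox7a2l, a factor that joins complexes III and IV into supercomplexes, -0.24 ± 0.24 for Sdhd, a membrane anchor of complex II, and -0.13 ± 0.20 for the complex I assembly factor Ndufaf3. None of these 6 passed, and in each the 4-8 and 12-4.4m1 libraries overlapped.

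The library means of the receptors overlapped in islets. The mean rlog over the 81 genes was 7.18, 6.96 and 7.32 in the 3 islet 4-8 libraries, against 6.96, 7.0 and 7.22 in the 3 islet 12-4.4m1 libraries. The low value of 4-8 and the 2 low values of 12-4.4m1 belonged to the 3 libraries whose titles contain the word Treg, while the other 3 titles use the letter R. The labels do not say what the forms of title mean, and all 6 spleen libraries have the letter R. In a fit with receptor and title form together, the 81 genes were lower in the Treg-titled libraries by a median of -0.28 (log2), with 74 of 81 differences below 0, against 49.5% of all genes and a median of 0.00 over all genes. Complex IV had 11 of 11 differences below 0 with a median of -0.37, complex V 15 of 15 with a median of -0.28, and complex I 32 of 35 with a median of -0.32. Only Cox5a, a subunit of complex IV, passed in that fit (-0.78 ± 0.18, adjusted p = 0.0226), against 0.731% of all genes called in either direction and 0.402% called lower, and 29 of the 81 had an unadjusted p under 0.05, against 13.3% of all genes.

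Other lists moved with the title form as well. Cytosolic ribosomal proteins were lower in the Treg-titled libraries in 73 of 81 cases, with a median of -0.19, and mitochondrial ribosomal proteins in 60 of 74, with a median of -0.17. The 8 assembly factors among the members had a median of -0.07, and the 13 genes of the citric acid cycle had 0.02. Acinar genes had a median of -0.16 and the 7 stress genes 0.04. With title form in the fit, still none of the 81 genes was called between the receptors. Whether the title form stands for a technical or a biological difference was not tested.

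**Figure D2:**
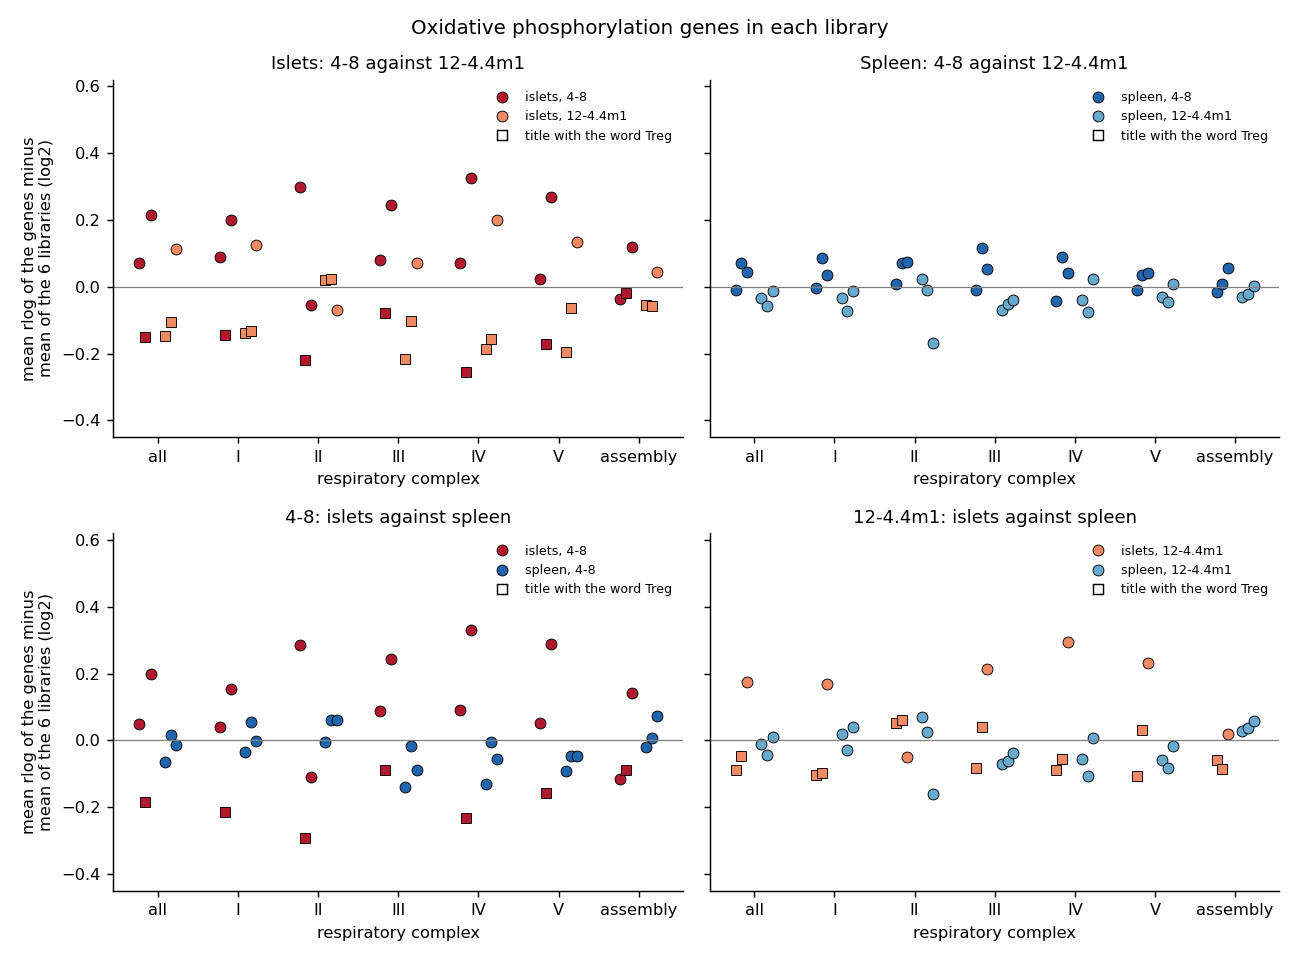
Mean rlog of the genes of each complex in each library, as the deviation from the mean of the 6 libraries of that table (log2), for all members, complexes I to V and assembly factors. Each point is 1 library, and squares mark titles with the word Treg. In the islet table the squares lie below 0 for complexes I, III, IV and V, and the spleen libraries lie close together.

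In spleen, Tregs with 4-8 and Tregs with 12-4.4m1 also showed no called gene of oxidative phosphorylation. Of 82 genes, 0 passed in limma, against 0.428% of all genes tested, and 4 reached an unadjusted p under 0.05, against 7.93% of all genes. The authors' DESeq2 and Cuffdiff tables called 0 of 82, against 0.231% and 1.15% of the genes they tested. The spread between libraries was smaller than in islets, with mean rlog over the 82 genes of 7.69, 7.77 and 7.74 in spleen 4-8, against 7.67, 7.64 and 7.69 in spleen 12-4.4m1. The lowest 4-8 library (7.691) stood just above the highest 12-4.4m1 library (7.689), so these means did not overlap. The median difference over the 82 genes was 0.07, beside -0.00 over all genes, and 59 of 82 were above 0, against 49.7% of all genes. The 95% intervals lay within 0.5 log2 units of 0 for 77 of 82 genes.

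By complex, the median difference in spleen was 0.07 for complex I, 0.12 for complex II, 0.16 for complex III, 0.05 for complex IV and 0.07 for complex V, and -0.03 for assembly factors. In 14 genes all 3 libraries of 4-8 lay above all 3 of 12-4.4m1, and in 1 gene all lay below. That is 18.3% of the members in either direction, against 13.3% of all genes tested. Without spleen replicate 2 of 4-8 the median was 0.04, and without replicate 2 of both receptors it was 0.02.

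The gene with the largest positive value was Ndufaf3, an assembly factor of complex I. Its rlog values were 6.20, 6.40 and 6.05 in spleen 4-8, against 5.82, 5.88 and 5.94 in spleen 12-4.4m1. All 4-8 libraries were higher, but the difference of 0.34 ± 0.13 had an adjusted p of 0.414 in limma. Uqcrq, a small subunit of complex III, had 9.06, 9.13 and 9.23 in spleen 4-8 and 8.83, 8.84 and 8.93 in spleen 12-4.4m1, again without overlap, with a difference of 0.27 ± 0.11 (adjusted p = 0.508). Atp5d, the delta subunit of the ATP synthase, had 0.28 ± 0.13. Atp5a1, the alpha subunit of the same enzyme, was the gene whose libraries were all lower with 4-8, at 8.97, 8.95 and 9.07, against 9.33, 9.09 and 9.34 with 12-4.4m1. Its difference of -0.26 ± 0.12 had an adjusted p of 0.567. The assembly factors Ndufaf2 (-0.18 ± 0.12) and Ndufaf7 (-0.16 ± 0.12) followed.

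Between tissues, 2 genes passed for Tregs with 4-8, and both were higher in islets: Uqcr10, a small subunit of complex III, and Atp5a1. That was 2 of 82 higher and 0 lower, against 5.14% and 2.84% of all genes tested and 7.98% in either direction, so that the share of calls among the members was not above that of all genes. An unadjusted p under 0.05 was reached by 13 of 82 members, against 22.2% of all genes. The authors' DESeq2 table called 2 members, against 6.76% of its genes, and their Cuffdiff table called 6 higher and 2 lower, against 15.9% of the genes it tested in either direction. Of the differences, 49 of 82 were above 0, against 48.3% of all genes. The median was 0.04, beside -0.01 over all genes, and turned to -0.07 without islet 4-8 replicate 3 and to -0.02 after quantile normalization. It was 0.14 without islet 4-8 replicate 2, 0.06 without spleen 4-8 replicate 2 and 0.12 in the Cuffdiff table.

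**Figure D3:**
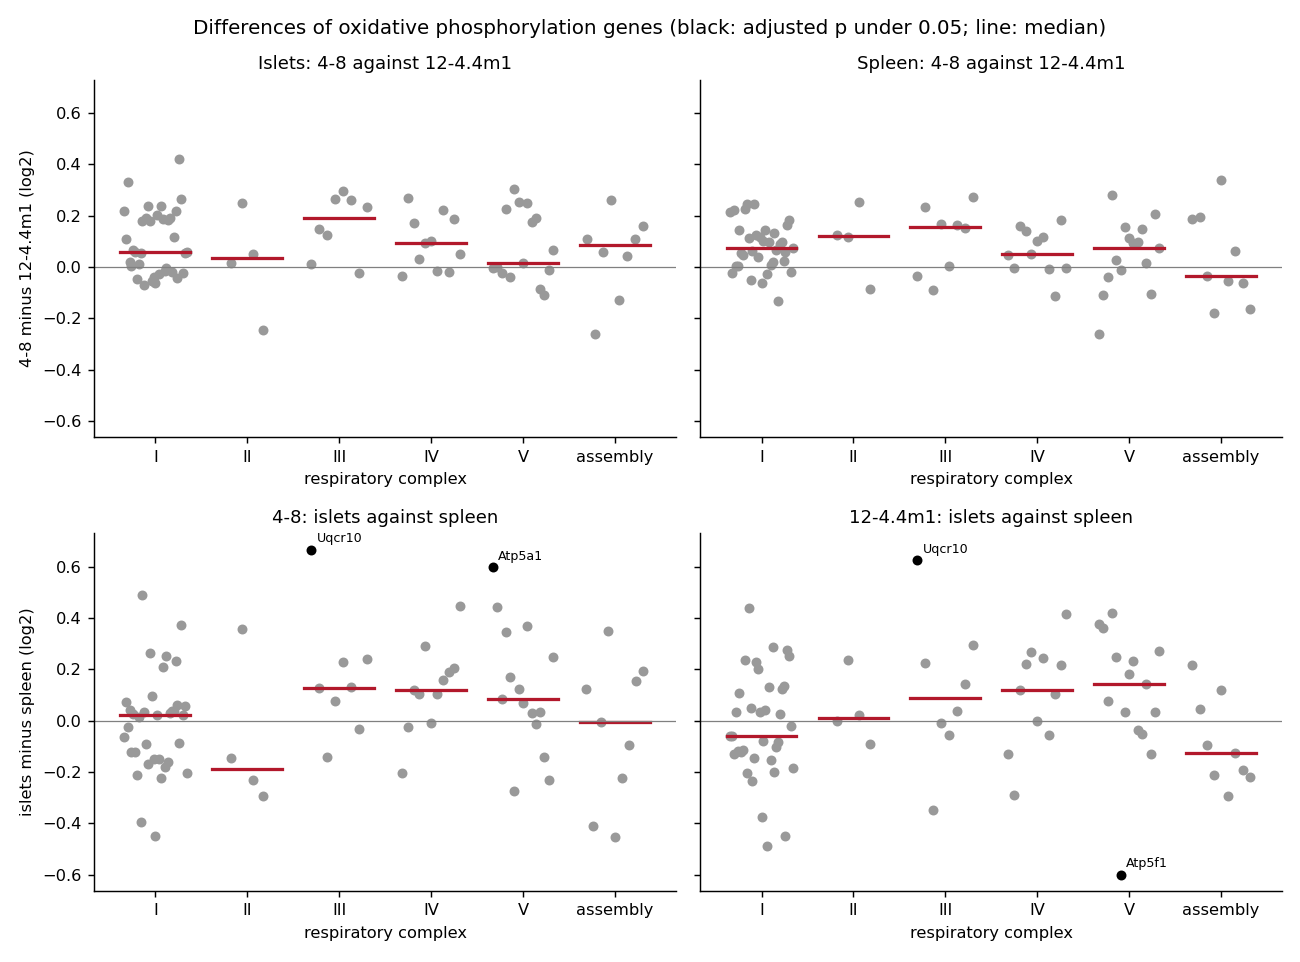
Difference of each tested gene (log2) by complex in the 4 comparisons, 4-8 minus 12-4.4m1 in the upper panels and islets minus spleen in the lower ones, with a line at the median. Genes in black have a limma adjusted p under 0.05: Uqcr10 and Atp5a1 for 4-8, Uqcr10 and Atp5f1 for 12-4.4m1, and none between receptors.

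Uqcr10 (GRCm38, chr11:4701973-4704342, minus strand) had rlog values of 8.01, 8.02 and 8.57 in islets 4-8, against 7.50, 7.68 and 7.43 in spleen 4-8. Every islet library was above every spleen library, with islets averaging 8.20 ± 0.32 and spleen 7.53 ± 0.13 (SD, n = 3 libraries each). The difference of 0.67 ± 0.17, a 1.59-fold change on the rlog scale, had an adjusted p of 0.0234 in limma. The authors' FPKM were 1127 in islets 4-8 and 526 in spleen 4-8. Atp5a1 (chr18:77773729-77782869, plus strand) had 9.66, 9.30 and 9.75 in islets 4-8, against 8.95, 8.93 and 9.04 in spleen 4-8. The groups did not overlap, and the difference was 0.60 ± 0.15, or 1.51-fold (adjusted p = 0.0180). Both calls rest on few libraries: with 1 library omitted at a time, each gene passed in 2 of 6 fits. Uqcr10 had adjusted p-values of 0.0727 without islet replicate 3 and of 0.112, 0.0525 and 0.128 without spleen replicates 1, 2 and 3. Atp5a1 had 0.0729 without islet replicate 1, 0.0956, 0.0905 and 0.0664 without spleen replicates 1, 2 and 3, and 0.0656 after quantile normalization.

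Other genes had larger values in islets 4-8 without passing. Ndufa8, an accessory subunit of complex I, had 8.52, 8.17 and 8.63 in islets 4-8, against 7.82, 7.95 and 8.08 in spleen 4-8, with a difference of 0.49 ± 0.16 (adjusted p = 0.0691). Ndufa4, which is a subunit of complex IV in spite of its name, had 9.28, 8.81 and 9.46 in islets and 8.74, 8.68 and 8.78 in spleen, with 0.45 ± 0.16 (adjusted p = 0.110). Atp5b, the catalytic beta subunit of the ATP synthase, had 9.82, 9.55 and 10.2 in islets and 9.32, 9.34 and 9.57 in spleen. Its groups overlapped, and the difference was 0.44 ± 0.16 (adjusted p = 0.108). In all of these except Uqcr10, the Treg-titled islet library had the lowest value of the 3.

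The largest negative values for 4-8 were those of Ndufaf3 at -0.45 ± 0.20 (adjusted p = 0.197), Ndufb4 at -0.45 ± 0.18 (0.146) and Cox7a2l at -0.41 ± 0.16 (0.134). Ndufb4, a membrane-arm subunit of complex I, had rlog values of 4.41, 4.24 and 4.65 in islets 4-8, against 4.92, 4.78 and 4.95 in spleen 4-8. Cox7a2l had 8.12, 8.06 and 7.62 in islets and 8.27, 8.41 and 8.36 in spleen. Neither gene overlapped between tissues, and neither passed. By complex, the median was 0.02 for complex I, -0.19 for complex II, 0.13 for complex III, 0.12 for complex IV and 0.08 for complex V. The groups did not overlap in 12 of 82 genes, or 14.6%, against 27.4% of all genes.

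For Tregs with 12-4.4m1, Uqcr10 was again higher in islets than in spleen, and Atp5f1 was lower. That was 1 of 82 called higher and 1 of 82 called lower, against 4.63% and 2.18% of all genes tested and 6.81% in either direction. An unadjusted p under 0.05 was reached by 10 of 82, against 20.3% of all genes. The authors' DESeq2 table called 1 member, against 4.72% of its genes, and their Cuffdiff table called 5 higher and 2 lower, against 14.7% of the genes it tested. The groups did not overlap in 10 of 82 genes, against 24.1% of all genes, and 46 of 82 differences were above 0, against 49.7%. The median difference was 0.03, beside -0.00 over all genes, and was -0.04 after quantile normalization, 0.06 in the Cuffdiff table and between -0.00 and 0.07 with 1 library left out.

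Uqcr10 had 7.57, 7.94 and 7.69 in islets 12-4.4m1, against 6.97, 7.11 and 7.24 in spleen 12-4.4m1. The groups did not overlap, and the difference of 0.63 ± 0.16, or 1.54-fold, had an adjusted p of 0.0175 in limma. The authors' FPKM were 1067 in islets and 545 in spleen. The call was lost without islet replicate 2 (adjusted p = 0.0795) and without spleen replicates 1 and 2 (0.111 and 0.0726). Atp5f1 (chr3:105942698-105960099, minus strand) had 7.18, 6.78 and 7.02 in islets 12-4.4m1, against 7.52, 7.61 and 7.65 in spleen 12-4.4m1. All islet libraries lay below all spleen libraries, with a difference of -0.60 ± 0.16 (adjusted p = 0.0222) and authors' FPKM of 73.3 in islets and 140 in spleen. The call was lost without islet replicate 2 (0.0888) and without each spleen replicate (0.0676, 0.104 and 0.0887), and the authors' DESeq2 table gave 0.0534. In the transcripts, 38.7% of the 50-base windows of Atp5f1 are shared with other genes, against 0 for Uqcr10.

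Ndufa8 (0.44 ± 0.20), Atp5d (0.42 ± 0.16), Ndufa4 (0.42 ± 0.16), Atp5a1 (0.38 ± 0.14) and Atp5b (0.36 ± 0.14) had the next largest positive values for 12-4.4m1, with adjusted p-values of 0.202, 0.126, 0.137, 0.121 and 0.128. Atp5d, part of the central stalk that turns within the ATP synthase, had 8.04, 8.08 and 8.46 in islets 12-4.4m1, against 7.79, 7.93 and 7.59 in spleen 12-4.4m1. Atp5a1 had 9.11, 9.26 and 9.10 in islets and 8.86, 8.60 and 8.88 in spleen. In both genes the tissues did not overlap. Ndufb7, a membrane-arm subunit of complex I, and Ndufs7 had the next negative values, -0.49 ± 0.18 and -0.45 ± 0.19 (adjusted p = 0.118 and 0.171). Complex V had the highest median, 0.14, followed by complex IV at 0.12, complex III at 0.09, complex II at 0.01 and complex I at -0.06.

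**Figure D4:**
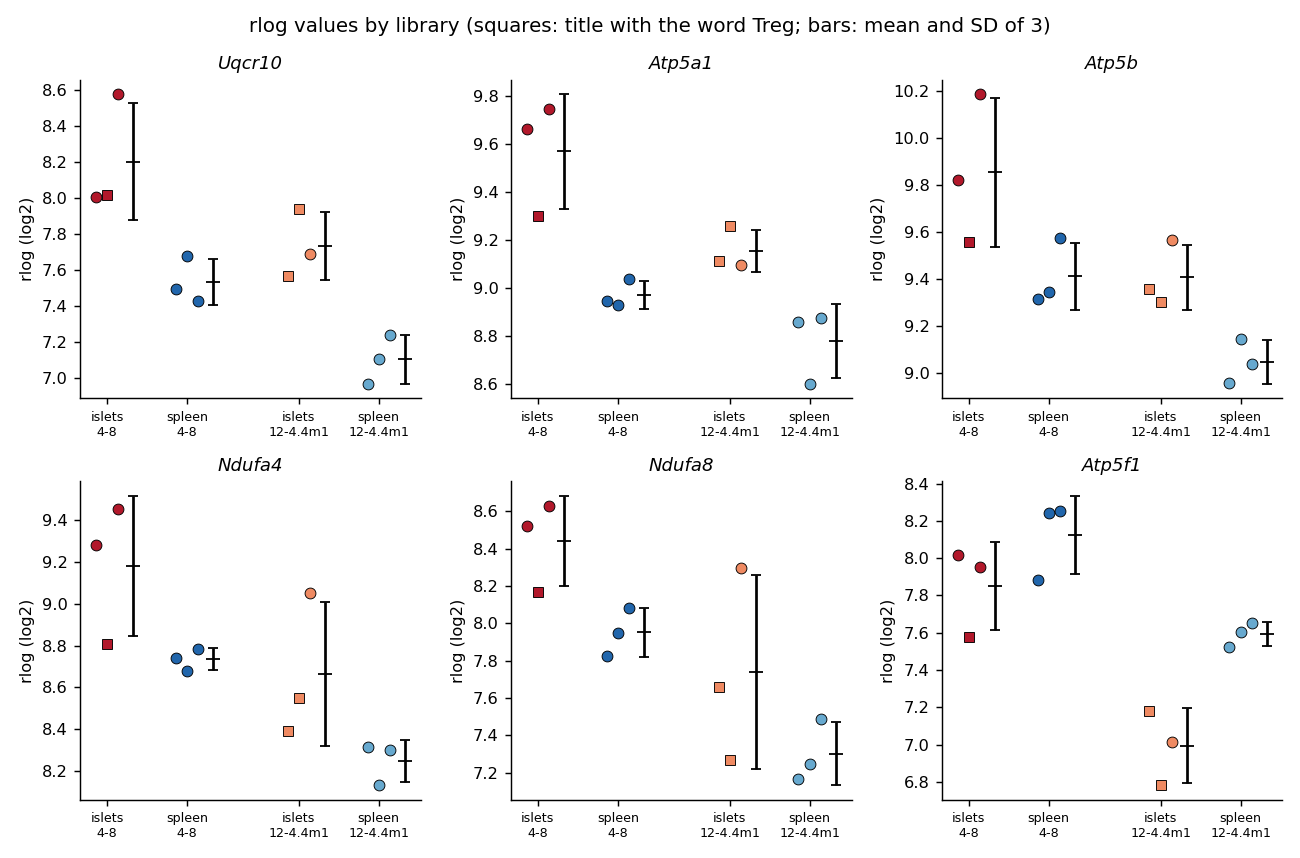
rlog values (log2) of 6 genes in each library of the tissue tables, islets left of spleen for each receptor, with the mean and SD of 3 libraries. Values compare within a receptor, since the tables were normalized separately. Uqcr10 does not overlap between tissues with either receptor, and Atp5f1 overlaps for 4-8 and not for 12-4.4m1.

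A panel of 25 core subunits and isoforms, 19 of them tested, was followed through all 4 comparisons. Its only call was Atp5a1 for 4-8 between tissues. The panel's differences ran between -0.26 for Cox7a2l and 0.27 for Cox5a between receptors in islets, and between -0.26 for Atp5a1 and 0.20 for Cox7a2l between receptors in spleen. Between tissues they ran between -0.41 for Cox7a2l and 0.60 for Atp5a1 with 4-8, and between -0.29 for Cox5a and 0.42 for Ndufa4 with 12-4.4m1. Sdha, the catalytic flavoprotein of complex II, had rlog values of 7.33, 7.01 and 7.05 in islets 4-8, against 7.25, 7.33 and 7.25 in spleen 4-8, with a difference of -0.15 ± 0.16. Cox5a had 7.92, 7.12 and 7.84 in islets 4-8, against 7.34, 6.84 and 7.89 in islets 12-4.4m1. Its lowest values were those of Treg-titled libraries in both groups, which overlapped.

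The tissue comparisons of the 2 receptors share no library, so their values can be set side by side. Of the 82 genes, 37 were higher and 24 lower in islets with both receptors, 74.4% in all with the same sign, against 69.1% of the 8298 genes tested in both. Across the 82 genes, which are not independent replicates, Pearson's r between the differences was 0.70 and Spearman's rho 0.68, beside 0.71 and 0.57 over all genes. Same signs were found in 13 of 15 subunits of complex V, 9 of 11 of complex IV, 28 of 35 of complex I and 5 of 8 of complex III. The 9 assembly factors had the same sign in 4 cases. An unadjusted p under 0.05 in both tissue comparisons was found for 6 of the 82 genes, against 9.89% of the 8298, all 6 with higher values in islets: Uqcr10, Atp5a1, Atp5b, Atp5d, Ndufa4 and Ndufa8. Cox7a2l and Ndufaf3, low in islets for 4-8, had 0.05 ± 0.15 and 0.12 ± 0.19 for 12-4.4m1, and whether the receptors differ in this was not tested.

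**Figure D5:**
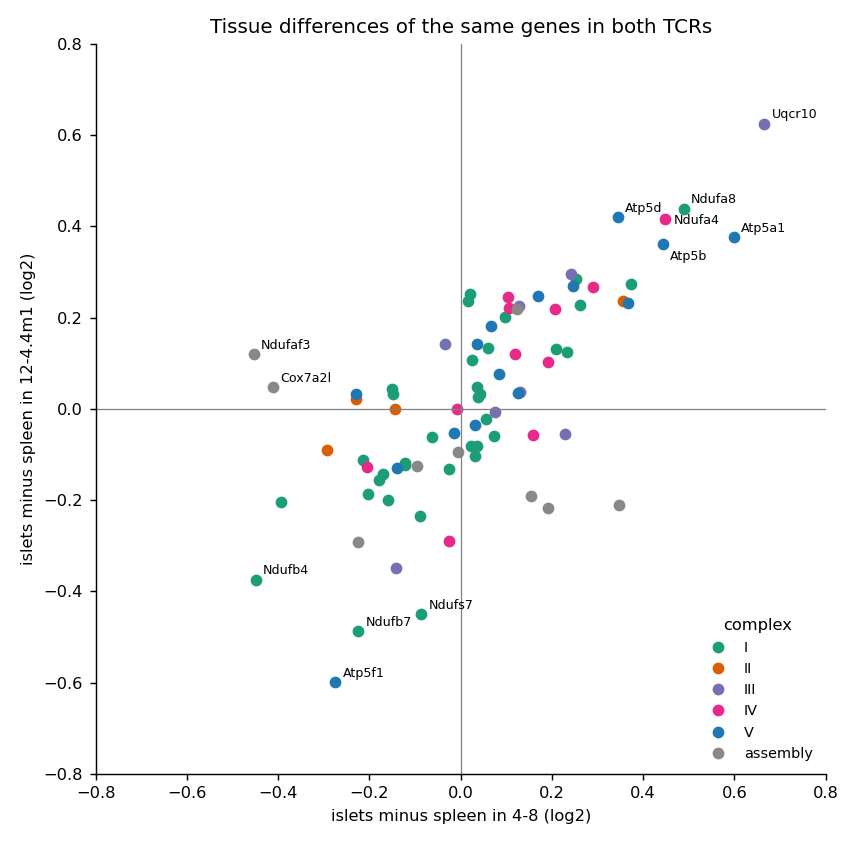
Islets minus spleen (log2) of the 82 genes for 4-8 on the horizontal and 12-4.4m1 on the vertical axis, coloured by complex. Uqcr10, Atp5a1, Atp5b, Atp5d, Ndufa4 and Ndufa8 lie in the upper right and Atp5f1 in the lower left.

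The 2 TCR comparisons, one in islets and one in spleen, also share no library, although they may share mice. Of 81 genes, 43 were higher and 8 lower with 4-8 in both tissues, 63.0% in all with the same sign, against 52.9% of 8049 genes, and Pearson's r was 0.20 beside 0.22 over all genes.

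The tissue comparisons were also fitted without the islet libraries of one form of title. For 4-8 the form cannot be told apart from the single library that has it, and the fit for 12-4.4m1 with the R-titled islet library alone was chosen after the data were seen. Since the members were lower in the Treg-titled islet libraries, leaving these out raises islets over spleen, and leaving out the R-titled one does the reverse. The direction of change in these fits was thus set by the choice of libraries and is no separate evidence of a tissue difference. When the Treg-titled library (replicate 2) was left out of islets 4-8, 10 of 82 genes were higher in islets and 0 lower, against 7.73% and 5.76% of all genes, 1211 in number. The 10 were Uqcr10, Atp5a1, Atp5b, Atp5d, Atp5g3, Ndufa4, Ndufa8, Ndufc1, Ndufs8 and Sdhb, with differences from 0.45 for Atp5d to 0.76 for Uqcr10. With the 1 islet 12-4.4m1 library that has the letter R against 3 spleen libraries, 7 of 82 were higher and 0 lower, against 5.72% and 3.57% of all genes. In that fit the lone islet library is assumed to vary like the spleen libraries. The 7 were Ndufa8 (0.99 ± 0.19, adjusted p = 0.00166), Ndufa4 (0.81 ± 0.17), Atp5d, Ndufc1, Cox6a1, Cox7a2 and Atp5b. Uqcr10 (0.58) and Atp5f1 (-0.58) then had adjusted p-values of 0.0590 and 0.0513. With only the Treg-titled islet 12-4.4m1 libraries, without replicate 3, 1 of 82 was higher (Uqcr10) and 4 were lower (Atp5f1, Ndufb7, Cox5a and Uqcrb), against 4.69% and 2.54% of all genes. The difference of Uqcr10 was above 0 in all of these fits. They reuse the libraries in which it was called, with the same 3 spleen libraries for each receptor, and so give no independent support.

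The rest of mitochondrial metabolism gave few calls, and glycolysis gave more. Of 15 glycolytic genes tested, 9 were higher in islets for 4-8 and 6 for 12-4.4m1, with 0 lower and medians of 0.70 and 0.49. Of all genes tested, 5.14% were called higher for 4-8 and 4.63% for 12-4.4m1, and these shares also apply to the counts of genes higher in islets in the other lists. Among the glycolytic genes, the glucose transporter Slc2a1 had 6.97, 6.92 and 7.03 in islets 4-8, against 5.90, 5.38 and 5.55 in spleen 4-8 (1.36 ± 0.18, adjusted p = 7.14e-05), and a difference of 0.79 ± 0.20 for 12-4.4m1 (adjusted p = 0.0163). The pyruvate kinase gene Pkm had 10.2, 10.5 and 10.5 in islets 4-8, against 9.32, 9.70 and 9.62 in spleen 4-8 (0.88 ± 0.15), and 0.49 ± 0.14 for 12-4.4m1. No glycolytic gene was called between the receptors in either tissue. In islets 11 of 15 were higher with 4-8 (median 0.35), against 49.3% of all genes, and in spleen 10 of 14 (median 0.09), against 49.7%. These genes were also lower in the Treg-titled islet libraries, by a median of -0.19.

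Of 13 genes of the citric acid cycle, only Mdh2, malate dehydrogenase, was called, higher in islets with both receptors (0.56 ± 0.17 for 4-8 and 0.71 ± 0.15 for 12-4.4m1). Between receptors 0 were called, with 13 of 13 higher with 4-8 in islets (median 0.17) and 5 of 13 in spleen (median -0.03). Among 21 genes of mitochondrial protein import and folding, the chaperonin genes Hspd1 (0.91 ± 0.15 and 0.89 ± 0.17) and Hspe1 (0.82 ± 0.16 and 0.93 ± 0.18) were called higher in islets for 4-8 and 12-4.4m1. Coq10b, a coenzyme Q binding protein, was higher in islets as well (0.78 ± 0.17 and 0.95 ± 0.19), as was Polg2, the accessory subunit of the mitochondrial DNA polymerase (1.07 ± 0.19 and 1.23 ± 0.19). Mitochondrial ribosomal proteins had 1 call in 76 for 4-8, Mrps6, and 0 in 74 for 12-4.4m1, with medians of 0.01 and 0.02. The 13 to 17 tested assembly factors of complex IV had 1 call, Cox14 for 12-4.4m1 (0.61 ± 0.18, adjusted p = 0.0413), and those of complexes I, II, III and V had 0. Tfam, which packs and transcribes mitochondrial DNA, had -0.54 ± 0.17 for 4-8 and -0.46 ± 0.18 for 12-4.4m1, without passing (adjusted p = 0.0551 and 0.139). Tfam and Polg2 belong to a list of regulators of mitochondrial biogenesis, 14 of them tested. For 4-8, 5 of the 14 were higher in islets, and 8 for 12-4.4m1, with medians of -0.19 and 0.04. Nrf1 had -0.17 and 0.12, Gabpa -0.31 and -0.54, and Myc 0.25 and 0.50, none of them passing. Cytosolic ribosomal proteins, another list of abundant transcripts, had 3 of 82 called higher for 4-8 and 6 of 81 for 12-4.4m1, with 0 lower. Heat shock and stress genes rose in the same islet libraries, as given above, and Hspd1 and Hspe1 are themselves heat shock genes.

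The promoters of the members were searched for motifs of factors known to act on respiratory genes. RefSeq start sites on GRCm38.p6 gave a 300-base window, 250 bases before and 50 after the start, for 76 of the 92 members. The palindromic core of the NRF1 motif, 10 bases long and given in capitals in each site here, was in 7 of 76 windows on either strand. That was 9.21%, against 1.07% of all 27025 windows. Among genes tested in the spleen TCR comparison, it was in 7 of 70 members, or 10%, against 2.76% of 7390 genes. The sites are shown with 10 bases on each side, in the direction of the gene.
Atp5g2: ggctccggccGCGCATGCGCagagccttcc
Atp5k: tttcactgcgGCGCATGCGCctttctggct
Cox6a1: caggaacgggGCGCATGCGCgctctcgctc
Ndufa11: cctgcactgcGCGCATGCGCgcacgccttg
Ndufaf4: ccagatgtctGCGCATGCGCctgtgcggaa
Ndufaf5: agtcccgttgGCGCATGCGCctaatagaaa
Uqcrc1: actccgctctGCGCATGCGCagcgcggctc
Those of Atp5g2 (chr15:102671070-102671099, minus strand), Atp5k, Cox6a1, Ndufa11 and Ndufaf4 lie before the start site, and those of Ndufaf5 and Uqcrc1 just after it. The 7 genes with the core had median tissue differences of -0.03 for 4-8 and -0.12 for 12-4.4m1, against 0.04 and 0.04 for the 63 tested genes without it. The 7 ran from -0.22 to 0.11 and from -0.29 to 0.22, inside the ranges of the 63, -0.45 to 0.67 and -0.60 to 0.63. Of the 7, 2 are assembly factors, and a difference between the sets was not tested.

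The letters CCGGAAG, a core of ETS factors such as GABP, were in 22.4% of the 76 windows, and AAGATGGC, a core of YY1, in 14.5%. Of the 70 members tested in the spleen TCR comparison, 24.3% had the ETS letters, against 24.3% of all 7390 genes tested. The YY1 letters were in 15.7% of these members, against 6.37%. Median tissue differences for 4-8 and 12-4.4m1 were 0.03 and 0.04 with the ETS letters, against 0.06 and 0.04 without them. With the YY1 letters they were 0.04 and 0.12, against 0.04 and 0.03 without. The YY1 letters were in 7 of 32 windows of complex I subunits, 3 of 14 of complex V, 0 of 3 of complex II, 0 of 5 of complex III and 0 of 13 of complex IV, and in 1 of 9 of assembly factors. None of the 3 motifs is in the 250 bases before the RefSeq start of Uqcr10, the gene called with both receptors, or of Atp5f1, the gene called in the opposite direction, which are given here for comparison. The window of Atp5f1 holds the YY1 letters after the start.
Uqcr10: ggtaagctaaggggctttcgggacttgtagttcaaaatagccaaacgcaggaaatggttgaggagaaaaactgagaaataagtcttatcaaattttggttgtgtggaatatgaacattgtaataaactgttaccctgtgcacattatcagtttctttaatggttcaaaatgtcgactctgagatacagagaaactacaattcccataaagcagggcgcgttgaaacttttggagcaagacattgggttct
Atp5f1: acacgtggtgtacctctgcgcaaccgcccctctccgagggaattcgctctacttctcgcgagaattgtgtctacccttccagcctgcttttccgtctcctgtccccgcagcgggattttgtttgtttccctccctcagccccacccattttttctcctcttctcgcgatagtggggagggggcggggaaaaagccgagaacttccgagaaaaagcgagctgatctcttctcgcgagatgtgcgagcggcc
The first lies at chr11:4704345-4704594 and the second at chr3:105959264-105959513, both on the minus strand. The window of Atp5f1 lies within the span that GENCODE gives the gene, whose longest transcript starts further upstream than the RefSeq one. A match describes letters only, and no binding was measured.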

How the data were processed

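Tregs were lysed with Triton X-100, and their RNA was reverse transcribed, amplified as cDNA and made into libraries with Nextera XT, per the labels' protocols. Amplification by PCR can distort abundances, and no molecular identifiers are named. The submitters' processing notes list TopHat 1.0.0, Cufflinks, STAR 1.1.0, DESeq, DESeq2 1.1.0 and mm10, with no roles. Per the file headers, the authors deposited for each of 4 comparisons rlog values (log2 scale), a mean normalized count per gene (a signal after size factors), DESeq2 log2 fold changes with p-values, and a table in Cuffdiff's format with 1 FPKM per group, q-values and a test statistic (a score). Raw reads per library are not given there, so no depth or counting interval is stated.

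From the rlog values, limma 3.58.1 in R 4.3.3 (lmFit, eBayes with trend) compared 3 with 3 libraries within each table, over genes with a mean normalized count of at least 10, 2-sided, with Benjamini-Hochberg adjustment over all genes tested. Exact permutation was not used, since with 3 libraries a group its smallest p is 0.1. Symbols that occur more than once in a table were left out. The sign of the fold changes in the authors' DESeq2 table was turned to match. Of the islet 4-8 columns, 1 carries a number that no title has and was used as a library of that group without a number. In each comparison the genes named are the members that passed and the 3 largest differences in each direction, beside a panel of 25 core subunits and isoforms summarised by its range, and genes named for another comparison were added. The members and gene lists were chosen with earlier results of these data known. The script was tested on simulated data. Shared 50-base windows and positions come from GENCODE M21, and promoters from RefSeq on GRCm38.p6. Alternatives were a stricter count minimum and none, no trend, quantile normalization, a replicate block, title form, omitted libraries and the authors' tables.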

Additional observations from a re-analysis of the deposited data

How the results depend on the processing

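With 3 libraries a group and no read depths, small differences could not be resolved. In islets between receptors 0 members were called under each alternative run, while calls over all genes, 30 as reported, were 15 at a minimum of 50, 52 with title form in the fit, 16 with R-titled libraries alone, 51 in Cuffdiff and 9 to 44 with 1 library omitted. In spleen 0 members were called under each alternative, and calls over all genes, 39 as reported, were 17 without trend, 11 without replicate 2 of both receptors, 21 in DESeq2, 81 in Cuffdiff and 14 to 56 with 1 library omitted. The spleen median was 0.0203 without both replicates 2, 0.119 in Cuffdiff and 0.0361 to 0.106 with 1 library omitted. For 4-8 between tissues, members called (2 as reported) were 1 after quantile normalization, 8 in Cuffdiff and 0 to 10 with 1 library omitted, and all genes (717) 1114 in Cuffdiff and 306 to 1211. For 12-4.4m1, members called (2) were 1 in DESeq2, 7 in Cuffdiff and 0 to 5 with 1 library omitted, all genes (575) 905 in Cuffdiff and 288 to 610, and the median 0.168 with R-titled libraries alone. Signs turned for Ndufaf3 in islets (0.0186 without the unnumbered library), Sdhd in islets (0.485 with R-titled libraries), Ndufs7 for 4-8 (-0.401 to 0.143 with 1 library omitted) and Cox7a2l for 12-4.4m1 (-0.0415 after quantile normalization, -0.0297 with R-titled libraries and -0.0493 in Cuffdiff), and no called gene reversed. The cause was not tested.

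Whether the replicate numbers pair the libraries was not settled. Correlations were taken between the deviations of libraries from their group means. No table had every same-numbered correlation above 0.1, the limit set for pairing. Between receptors in spleen, the same-numbered ones were 0.120, 0.0865 and 0.0748, against -0.0881 to 0.00785 for unlike numbers. With a replicate block, members called stayed at 0, 0, 2 and 2 in number, calls over all genes were 54 in islets and 78 in spleen between receptors and 729 and 724 between tissues, and Ndufaf3 in islets was 0.0532. In islets between receptors, the unnumbered 4-8 library and replicate 3 of 12-4.4m1 had no partner in the block. The receptor difference of that fit thus rests on replicates 1 and 2 alone.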
